A study of Danio rerio with 25 samples.

Results

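The genes described here are the structural genes of the cardiac sarcomere other than the myosins: 38 listed names of the thin filament, titin, the Z-disc, the M-band and their closest partners. They were followed in all 25 libraries of a study of cardiomyocytes from adult zebrafish hearts. The names were matched to gene IDs without regard to case, and where the name table drops the paralogue letter every ID of that name was taken. This gave 42 gene IDs of the 31901 in each file. Of the 38 names, 22 were matched as listed and 16 with the letter dropped, so that TNNT2, TNNI1, ACTA1, TTN, MYOM1, LMOD2, MYOZ2 and PDLIM5 each stand for 2 IDs and are given with their ID. TNNC1 is the ID taken for tnnc1b, while tnnc1a kept its own name.

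Every fish carried sox10:CreERT2, an inducible Cre recombinase under sox10 regulatory sequence, together with the reporter vmhcl:loxP-tagBFP-loxP-mCherry-NTR. That reporter is driven by sequence of the ventricular myosin gene vmhcl and changes from a blue to a red protein in cells in which Cre has removed the loxP-flanked part. Tubes of 20 sorted cells each were made into Smart-seq2 libraries from hearts after cryoinjury sorted by the RFP gate (CI_RFP, 12 libraries) or the BFP gate (CI_BFP, 3), and from uninjured hearts sorted by the RFP gate (UN_RFP, 6) or the BFP gate (UN_BFP, 4). The labels name no animal, age, time after injury, Cre induction or sort day, so the p-values speak for the spread of these tubes alone, which may be technical in part. The study's title concerns the contribution of sox10+ cardiomyocytes to regeneration.

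The sarcomere is the contractile unit of the heart muscle cell, in which myosin filaments pull on actin thin filaments anchored at the Z-disc. The troponin complex and tropomyosin on the thin filament make that pull depend on calcium, titin spans from the Z-disc to the M-band, where myomesins link the myosin filaments, and leiomodins and tropomodulins set the length of the thin filament. Zebrafish carry duplicated copies of many of these genes, and chamber-restricted expression of paralogues is well known for sarcomere genes of the zebrafish heart.

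Counted reads came to between 5644279 and 11981012 per library, and between 1226 and 15380 genes had a count. The library with the fewest genes, UN_RFP 5, held counts for 19 of the 42 genes, and CI_RFP 5 and UN_RFP 1 also detected fewer than 5130.5 genes, the limit used when few-gene libraries are left out. Replicates varied widely: the common biological coefficient of variation over the 14853 genes tested was 2.13. Of the 9 cardiomyocyte marker IDs, UN_BFP detected all 9, and the other 3 groups 8, lacking MYH6 ENSDARG00000114031. These markers took a median of 2.57% of counts in CI_RFP (0.143% to 7.21%) and 0.619% in CI_BFP (0.537% to 1.42%), and 1.70% in UN_RFP (0.603% to 4.48%) and 0.714% in UN_BFP (0.0888% to 1.23%), with the higher median in the RFP gate both times. Their part in the gate differences was not tested. No 2 libraries were identical among the 300 pairs. Levels are CPM (reads per unit of library size, scaled by the trimmed mean of M-values) and are not divided by gene length, so only levels of the same gene are compared. Of the 42 genes, 12 were detected in all 25 libraries, 28 in 20 or more and 7 in 10 or fewer. The low-count filter kept 40; tpma, a tropomyosin, had counts in CI_RFP 4 alone at 2.04 CPM, and obscna, an obscurin, reached 5.59 CPM in CI_RFP 10 and 0.0728 CPM in CI_RFP 4 and was at 0 elsewhere.

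**Figure D1:**
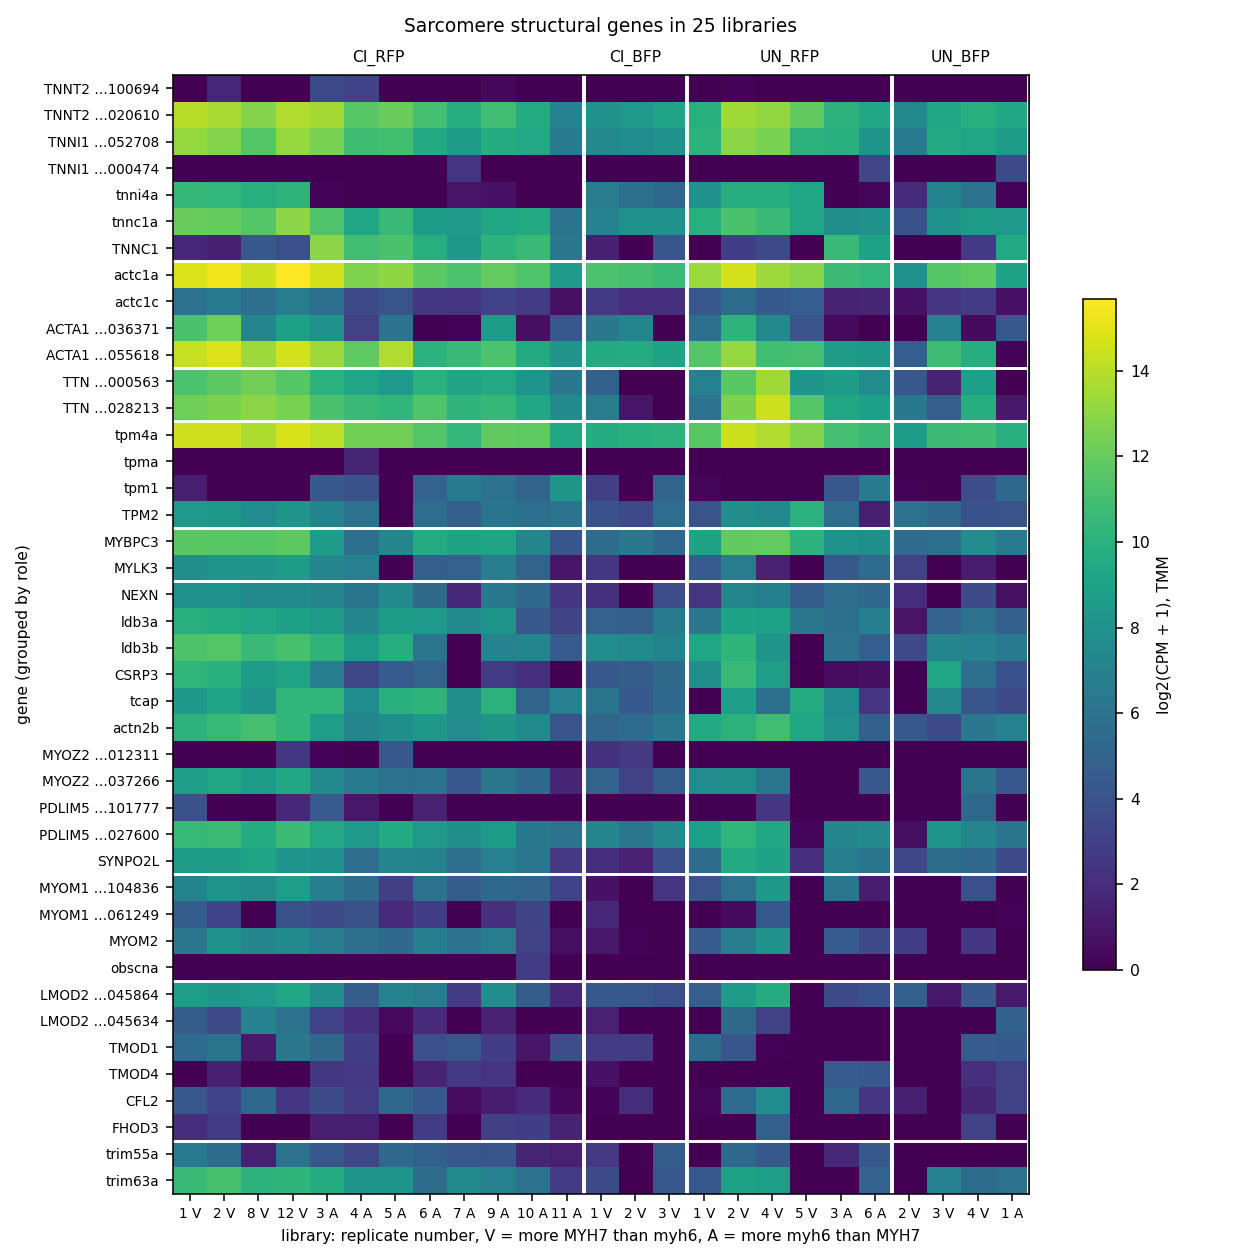
Level of each of the 42 genes (rows, grouped by role) as log2(CPM + 1) in each of the 25 libraries (columns, by group). V marks libraries with more MYH7 than myh6 and A the reverse. In the RFP gate tnni4a is bright in V columns and dark in A columns, and TNNC1 is the reverse.

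Together the 42 genes took 0.359% to 8.36% of all counts in CI_RFP libraries (median 4.70%, n = 12), against 0.650%, 0.560% and 0.755% in the 3 CI_BFP libraries. They took 0.775% to 8.01% in UN_RFP libraries (median 2.14%, n = 6), against 0.612%, 0.148%, 1.40% and 1.097% in the 4 UN_BFP libraries. Of the CI_RFP tubes, 11 of 12 lay above every CI_BFP tube, the exception being CI_RFP 11, and the ranges of UN_RFP and UN_BFP overlapped. The mix within this share also varied. Sarcomeric actins made up 23.2% to 51.6% of the genes' counts in CI_RFP and 42.1% to 58.9% in CI_BFP, and titin 3.62% to 19.5% in CI_RFP and 0% to 2.25% in CI_BFP, so every CI_RFP tube gave titin a larger part than any CI_BFP tube did. In uninjured hearts titin made up 0.780% to 37.8% in UN_RFP and 0.0258% to 12.6% in UN_BFP, with the highest value in UN_RFP 4. In pooled tubes, fewer cardiomyocytes and less sarcomere RNA per cardiomyocyte cannot be told apart.

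**Figure D2:**
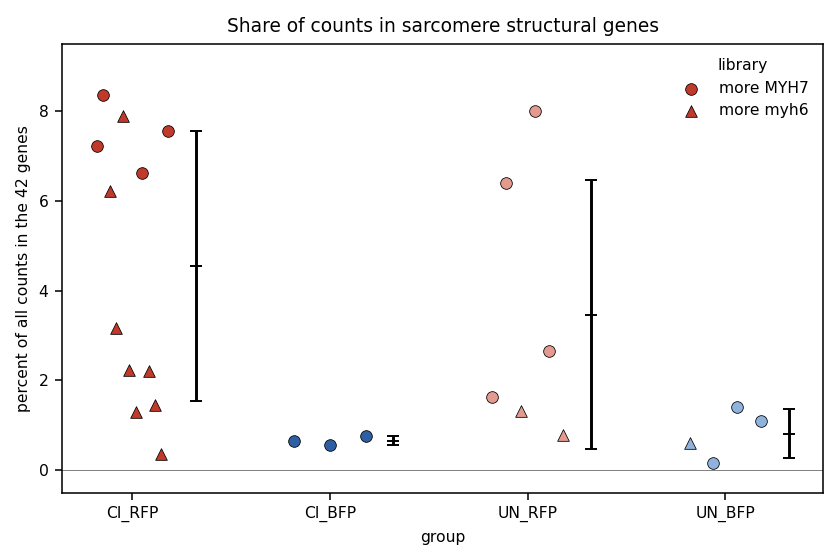
Percent of each library's counts in the 42 genes (vertical axis) by group, with circles for libraries with more MYH7 and triangles for more myh6; the bar beside each group is the mean ± SD. CI_RFP libraries reach 8.36% and UN_RFP libraries 8.01%, while no BFP library exceeds 1.40%.

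After cryoinjury, the sarcomere genes stood higher in the RFP gate than in the BFP gate almost throughout, with 39 of the 40 tested genes at a positive fold change. Their median log2 fold change for CI_RFP over CI_BFP was 3.59, against 0.22 over all 14853 genes, and 3.51 when the 4 genes at 0 in all CI_BFP libraries are set at the bound that 3 counts over the group allow. None passed an adjusted p of 0.05 in edgeR's quasi-likelihood test with Benjamini-Hochberg adjustment over all genes, where 0% of all genes passed. At an unadjusted p under 0.05, 22 of 40 were higher and 0 lower, against 7.65% of all genes higher and 1.68% lower. With relative log expression size factors, 14 members were higher and 0 lower at that p, against 4.59% of all genes higher and 3.36% lower. Among the 22 were TNNT2 (ENSDARG00000100694), PDLIM5 (ENSDARG00000101777) and FHOD3, which were at 0 in all CI_BFP libraries. Their CI_RFP means were 1.75, 3.39 and 2.74 CPM. The low-count filter kept these genes through tubes outside CI_BFP, so their direction is not independent of that filter. On the same counts voom called 3 members, both TTN IDs and MYOM2, where it called 1.43% of all genes, and DESeq2 called 10, where it called 2.99%.

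Troponin T, which ties the troponin complex to tropomyosin, had the smallest p of the members. TNNT2 (ENSDARG00000020610) ranged from 123 to 16278 CPM in CI_RFP with a median of 3757 CPM, against 239, 347 and 567.5 CPM in CI_BFP. The groups overlapped only through CI_RFP 11, the lowest tube, and the log2 fold change was 4.04 ± 1.14 (SE) with an adjusted p of 0.212. MYBPC3, the cardiac myosin-binding protein C that steadies the myosin heads, lay between 17.1 and 3405 CPM in CI_RFP (median 562 CPM), against 45.5, 72.5 and 36.9 CPM in CI_BFP. CI_RFP 11 was again below the BFP tubes and CI_RFP 4, at 53.4 CPM, was inside their range; the log2 fold change was 4.65 ± 1.35 (adjusted p = 0.243). TNNI1 (ENSDARG00000052708), an inhibitory troponin I subunit, ran from 87.3 to 9430 CPM in CI_RFP (median 1867 CPM), against 165, 199.6 and 249.6 CPM in CI_BFP. Its log2 fold change was 4.06 ± 1.19 (adjusted p = 0.268), with CI_RFP 11 the one tube below the BFP range. Adjusting the model for each library's MYH7 to myh6 ratio brought TNNT2, TNNI1 and MYBPC3 under the threshold, at adjusted p = 0.0136, 0.0193 and 0.0221, together with tpm4a at 0.0136 and actc1a at 0.0202, where 0.936% of all genes passed. DESeq2 also called these 3 genes, and so did edgeR without the low-count filter. The log2 ratios of CI_RFP tubes lay at -6.05 or below or at 12.8 or above, and those of CI_BFP at 5.66 to 8.22. No CI_RFP tube shared the CI_BFP range, so the ratio-adjusted gate difference rests on a straight line fitted across that gap.

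Titin and myomesin were the genes whose CI_RFP tubes all exceeded the CI_BFP tubes, 3 of 40 members against 0.693% of all genes; 0 members and 1.14% of all genes were lower without overlap. TTN (ENSDARG00000000563) ranged from 76.7 to 4909 CPM in CI_RFP (median 859 CPM), against 27.9, 0 and 0 CPM in CI_BFP. TTN (ENSDARG00000028213) ranged from 179 to 7770 CPM in CI_RFP (median 1979 CPM), against 94.8, 0.953 and 0 CPM in CI_BFP. Titin transcripts were thus present in every CI_RFP tube and at 0 for both IDs in CI_BFP 3. The log2 fold changes were 7.36 ± 2.88 and 6.55 ± 2.42, both at an adjusted p of 0.524. MYOM1 (ENSDARG00000104836), which crosslinks myosin filaments at the M-band, ranged from 6.70 to 419 CPM in CI_RFP (median 52.3 CPM), against 0.667, 0 and 4.04 CPM in CI_BFP. MYOM2 did nearly the same, with 0.510 to 259 CPM in CI_RFP (median 85.0 CPM), against 1.14, 0.106 and 0 CPM in CI_BFP.

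Among the actins, actc1a, the cardiac alpha-actin, had 361 to 52429 CPM in CI_RFP (median 7327 CPM), against 2365, 2139 and 1666 CPM in CI_BFP, with a log2 fold change of 3.02 ± 1.09 (adjusted p = 0.524). ACTA1 (ENSDARG00000055618), named after skeletal alpha-actin, had 291.5 to 29987 CPM in CI_RFP (median 7075 CPM), against 771, 788 and 549 CPM in CI_BFP. The second copy, ACTA1 (ENSDARG00000036371), spread from 0 to 4827 CPM in CI_RFP, against 73.7, 144 and 0 CPM in CI_BFP, so that all 3 BFP tubes lay inside the RFP range. Of the summed counts of actc1a and actc1c, actc1a made up 99.7% to 99.9% in every library; reads of near-identical actin copies may be split between such IDs, so actc1c is uncertain. The tropomyosin tpm4a, which lies along the thin filament, ranged from 661 to 27209 CPM in CI_RFP (median 5212 CPM), against 832, 983 and 1131 CPM in CI_BFP.

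At the Z-disc, actn2b, an alpha-actinin that crosslinks actin ends, spanned 15.7 to 2131 CPM in CI_RFP (median 323 CPM), against 34.5, 43.2 and 77.7 CPM in CI_BFP. NEXN, the actin-binding protein nexilin, had 2.44 to 248 CPM in CI_RFP (median 109 CPM), against 3.91, 0 and 12.1 CPM in CI_BFP. The titin cap tcap lay between 34.2 and 1301 CPM in CI_RFP (median 451 CPM), against 64.2, 20.1 and 39.7 CPM in CI_BFP. In each of these genes 2 or fewer CI_RFP tubes fell within or below the BFP range. CSRP3, muscle LIM protein, did otherwise: it spread from 0 to 1263 CPM in CI_RFP with a median of 27.0 CPM, which lies among the 19.8, 23.9 and 41.9 CPM of CI_BFP. The member with a negative fold change was MYOZ2 (ENSDARG00000012311), a calsarcin with counts in 3 of 12 CI_RFP tubes and in 2 of 3 CI_BFP tubes, none above 19.1 CPM.

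Of other cell types, the 12 leukocyte markers took 6.22e-05% to 0.759% of counts in CI_RFP and 0.268% to 1.47% in CI_BFP, and 0% to 0.469% in UN_RFP and 0.0266% to 1.55% in UN_BFP. Their medians were 0.0145% in CI_RFP against 1.34% in CI_BFP, and 0.0408% in UN_RFP against 0.258% in UN_BFP. All 12 were detected in each group. The 13 fibroblast and epicardium markers, also all detected in each group, took 0% to 7.19% in CI_RFP and 0.300% to 1.51% in CI_BFP, and 0% to 0.384% in UN_RFP and 0.186% to 1.07% in UN_BFP. Here the medians were 0.684% in CI_RFP against 0.486% in CI_BFP, and 0.00412% in UN_RFP against 0.706% in UN_BFP. The 8 endothelial and endocardial markers, all detected in each group, took a median of 0.00616% in CI_RFP (at most 0.0619%), against 0.0413% in CI_BFP (at most 0.136%). Without injury their median was 0.00929% in UN_RFP (at most 0.106%), against 0.105% in UN_BFP (at most 0.133%). The 9 smooth muscle markers took a median of 0.0406% in CI_RFP (at most 0.421%), against 0.0351% in CI_BFP (at most 0.0468%). In CI_BFP, with 3 tubes, 5 of these 9, acta2 included, were at 0, against 1 in CI_RFP with 12 tubes. Of 7 skeletal muscle markers, 3 were detected in CI_BFP and 6 in CI_RFP, pvalb1 and pvalb2 being at 0 in CI_BFP. They took a median of 0.410% of counts in CI_RFP (at most 0.853%), against 0.0515% in CI_BFP (at most 0.0950%). Without injury, the smooth muscle median was 0.0748% in UN_RFP (at most 0.190%), against 0.0845% in UN_BFP (at most 0.123%). The skeletal muscle median was 0.188% in UN_RFP (at most 0.637%), against 0.0350% in UN_BFP (at most 0.0862%). The 6 neural crest and glia markers stayed at or below 0.0127% of counts in every library, and SOX10 was at 0 in CI_BFP. The highest fibroblast share, 7.19%, was in CI_RFP 11, the tube with the lowest level in its group for 19 members. The part of these cell types in the gate differences was not tested.

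In uninjured hearts, the RFP gate was again above the BFP gate for most sarcomere genes: 37 of 40 had a positive fold change. Their median log2 fold change for UN_RFP over UN_BFP was 2.67, against -0.43 over all genes. None passed the adjusted threshold in edgeR, as with 0% of all genes; at an unadjusted p under 0.05, 17 of 40 had higher and 0 had lower values, against 6.56% of all genes higher and 11.2% lower. On the same counts voom called 0 members (0.963% of all genes) and DESeq2 called 6 (5.43% of all genes): MYBPC3, actn2b, tpm4a, NEXN, trim55a and TTN (ENSDARG00000028213). Adjusting for the MYH7 to myh6 ratio, which brought members under the threshold after injury, called 0 members here, where it called 148 of all genes. The members' median was then 1.92, against -0.68 over all genes.

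MYBPC3 had 219.8 to 3904 CPM in UN_RFP (median 829.5 CPM), against 87.9, 44.5, 53.4 and 189 CPM in UN_BFP. It was the one member whose UN_RFP tubes all exceeded the UN_BFP tubes, where 0.0606% of all genes did so and 0.869% were lower without overlap, and its log2 fold change was 4.11 ± 1.17 (adjusted p = 0.115). Over the 25 edgeR fits that each left out 1 library, its adjusted p ran from 0.0397 to 0.194. The fit without UN_RFP 6, the lowest RFP tube, gave the 0.0397, and the other 24 did not pass. The muscle RING-finger ligase gene trim55a, whose protein sits at titin and the M-band, had counts in 4 of 6 UN_RFP tubes, up to 39.5 CPM, and in none of the 4 UN_BFP tubes. The UN_RFP mean was 211-fold the floor of 3 counts over the UN_BFP group (edgeR adjusted p = 0.115). That bound covers counting error and not the spread between tubes, and without UN_RFP 2 it was 130.4-fold. For actn2b, UN_RFP ranged from 27.0 to 1879 CPM (median 717 CPM), against 121, 18.4, 10.6 and 72.4 CPM in UN_BFP. Its log2 fold change was 3.81 ± 1.20 (adjusted p = 0.115), and UN_RFP 6 was the one RFP tube inside the BFP range.

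The troponins, actins and titin were more mixed between uninjured gates. TNNT2 (ENSDARG00000020610) had 656 to 10960 CPM in UN_RFP (median 2447 CPM), against 672, 165, 642 and 951 CPM in UN_BFP, and the log2 fold change was 2.86 ± 0.96. Among the titin IDs, ENSDARG00000028213 had 61.5 to 22719 CPM in UN_RFP, against 1.08, 80.4, 26.4 and 865 CPM in UN_BFP. UN_RFP 1, 3 and 6 lay below UN_BFP 4, and UN_RFP 1 also lay below UN_BFP 2. TTN ENSDARG00000000563 had 116 to 10925 CPM in UN_RFP (median 346 CPM), against 0, 18.7, 1.90 and 453 CPM in UN_BFP, and UN_BFP 4 was again inside the RFP range. MYOM1 (ENSDARG00000104836) was not called as fitted (edgeR adjusted p = 0.157). UN_BFP 4, at 13.3 CPM, was the one UN_BFP tube that had counts for it. Leaving out that tube put the group at 0 and gave an adjusted p of 0.0337. That call follows from the tube left out and is no further evidence. Cardiac alpha-actin actc1a had 1313 to 24444 CPM in UN_RFP (median 8877 CPM), against 517, 239, 3009 and 3559 CPM in UN_BFP. ACTA1 ENSDARG00000055618 had 326 to 9314 CPM in UN_RFP (median 2020 CPM), against 0.136, 24.8, 1758 and 865 CPM in UN_BFP. In both actins UN_RFP 3 and UN_RFP 6 fell inside the BFP range. For tpm4a, UN_RFP tubes had 1508 to 22001 CPM (median 5046 CPM), against 900, 398, 1684 and 1785 CPM in UN_BFP, and UN_RFP 6 was inside the BFP range. NEXN had 4.47 to 141 CPM in UN_RFP (median 44.2 CPM), against 0.610, 3.11, 0 and 11.7 CPM in UN_BFP. The titin cap tcap overlapped widely, with 0 to 816 CPM in UN_RFP and 11.4, 0, 163 and 17.4 CPM in UN_BFP. For CSRP3, UN_RFP tubes ran from 0 to 1502 CPM, against 14.7, 0, 596.5 and 51.4 CPM in UN_BFP. The log2 fold change of CSRP3 was 1.12 ± 2.39, within the spread of the tubes.

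**Figure D3:**
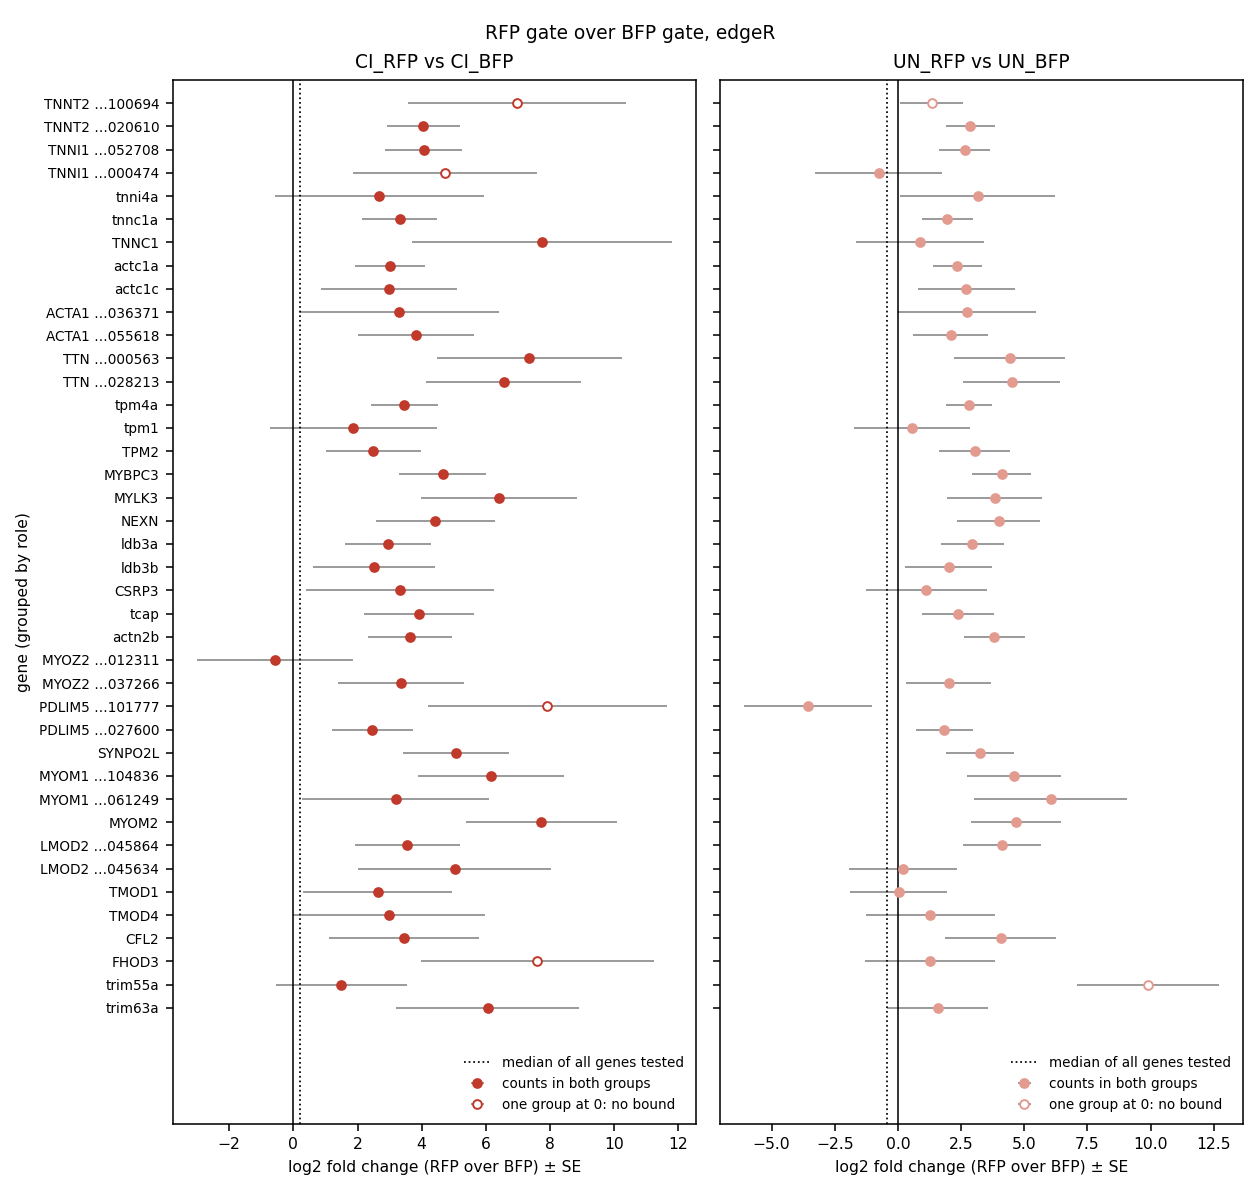
Log2 fold change ± SE of the RFP gate over the BFP gate (horizontal axis) for each tested gene, after cryoinjury on the left and without injury on the right; the dotted line is the median of all genes tested. Open circles have one group at 0, and MYOZ2 ENSDARG00000012311 has no point without injury, being at 0 in both gates. Medians are 3.59 and 2.67.

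Other troponin genes spread widely within the RFP gate. Troponin I tnni4a had 0 to 1408 CPM in CI_RFP (median 0.405 CPM), against 96.4, 53.7 and 38.4 CPM in CI_BFP, and 0.0746 to 873 CPM in UN_RFP (median 417 CPM), against 0.136, 2.72, 132 and 58.0 CPM in UN_BFP. Troponin C tnnc1a had 61.7 to 7785 CPM in CI_RFP (median 1158 CPM), against 124, 255 and 270 CPM in CI_BFP, and 211 to 2275 CPM in UN_RFP (median 774 CPM), against 352, 14.5, 262 and 379 CPM in UN_BFP. TNNC1 had 1.58 to 8008 CPM in CI_RFP (median 642 CPM), against 1.62, 0 and 17.2 CPM in CI_BFP, and 0 to 1539 CPM in UN_RFP (median 8.34 CPM), against 732, 0, 0 and 5.23 CPM in UN_BFP. The RFP and BFP ranges overlapped for all 3 genes in both conditions.

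Of the genes not yet named, SYNPO2L, a synaptopodin-related Z-disc protein, had 5.10 to 564 CPM in CI_RFP, against 3.15, 1.70 and 13.4 CPM in CI_BFP (log2 fold change 5.07 ± 1.65, adjusted p = 0.465). PDLIM5 ENSDARG00000027600 had 59.4 to 1652 CPM in CI_RFP, against 147, 69.6 and 169 CPM in CI_BFP, and TPM2, a further tropomyosin, had 0 to 341 CPM in CI_RFP, against 14.2, 10.4 and 46.7 CPM in CI_BFP. Low in all groups were TNNI1 ENSDARG00000000474, which had counts in 3 libraries and at most 9.97 CPM, and MYOM1 ENSDARG00000061249, at most 24.0 CPM.

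All libraries were also parted by which chamber myosin was higher: MYH7, the name the table gives the ID used for the ventricular heavy chain, or myh6, the atrial heavy chain. The name myh6 also matches other IDs when case is ignored, and the split did not sum over these. MYH7 led in 4 of 12 CI_RFP, 3 of 3 CI_BFP, 4 of 6 UN_RFP and 3 of 4 UN_BFP libraries. In the RFP gate, 10 libraries thus had more myh6, though the reporter is driven by sequence of the ventricular gene vmhcl. Their MYH7 level ran from 0 CPM in CI_RFP 10 to 86.8 CPM in UN_RFP 6. The reason was not tested. Since the split by chamber myosin differs between gates, the gate comparison was repeated among libraries with more MYH7, as ranges without a test. The tubes so chosen were still unlike. After cryoinjury MYH7 itself was at 26117 to 53551 CPM in the RFP tubes, against 162 to 297 CPM in the BFP tubes. Cardiomyocyte markers, MYH7 among them, took 5.40% to 7.21% of counts against 0.537% to 1.42%. The part of this in the differences below was not tested. After cryoinjury, 29 of 40 members were higher in all 4 CI_RFP tubes than in all 3 CI_BFP tubes and 0 were lower, against 8.72% of all genes higher and 10.8% lower. Cardiac troponin T TNNT2 (ENSDARG00000020610) had 6929 to 16278 CPM in these CI_RFP tubes, against 239 to 567.5 CPM in CI_BFP. TTN (ENSDARG00000000563) had 2402 to 4909 CPM against 0 to 27.9 CPM in CI_BFP, and trim63a, the other muscle RING-finger ligase gene, had 1146 to 2222 CPM against 0 to 18.3 CPM in CI_BFP. Without injury, 10 of 40 were higher in all 4 UN_RFP tubes than in all 3 UN_BFP tubes, against 0.518% of all genes higher and 7.83% lower. These 10 were TNNI1 (ENSDARG00000052708), tnni4a, tnnc1a, actc1a, actc1c, ACTA1 (ENSDARG00000055618), tpm4a, MYBPC3, ldb3a and actn2b. Reads of actc1c may be split with those of actc1a, so actc1c is uncertain here and among the 29. With CPM from the total count alone there were 5, where 43 of 14853 genes were higher and 1560 lower. Cardiomyocyte markers took 1.37% to 4.48% of counts in the UN_RFP tubes with more MYH7, against 0.0888% to 1.23% in such UN_BFP tubes. Their part in these differences was not tested.

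Between injured and uninjured hearts, the sarcomere genes of the RFP gate had, in edgeR's fit, a median fold change close to that of all genes. The median log2 fold change of the 40 members for CI_RFP over UN_RFP was 0.77, against 0.75 over all genes. That closeness depended on the setting: members minus all genes ran from -0.45 with DESeq2 to 0.72 with the myosin ratio in the model. No member passed the adjusted threshold in edgeR, where 0.0269% of all genes did; 2 of 40 were higher at an unadjusted p under 0.05 and 0 lower, against 15.8% of all genes higher and 1.11% lower. Ranges of CI_RFP and UN_RFP overlapped for all 40 members, while 0.0673% of all genes were higher and 0% lower without overlap. DESeq2 called 1 member (5.8% of all genes) and voom 0 (3.12% of all genes). That member, MYOZ2 (ENSDARG00000012311), also had the smallest p in edgeR (adjusted p = 0.0912). It was at 19.1, 4.76 and 0.130 CPM in CI_RFP 5, 12 and 3. The other 9 CI_RFP tubes and all 6 UN_RFP tubes were at 0. Its CI_RFP mean was 34.0-fold the floor of 3 counts over UN_RFP, a bound that covers counting error and not the spread between tubes. The calsarcin signal rests mainly on CI_RFP 5, a tube with few detected genes, without which the bound was 7.55-fold. TNNT2 (ENSDARG00000100694), the second troponin T ID, had counts in 4 of 12 CI_RFP tubes up to 10.4 CPM and in 1 of 6 UN_RFP tubes at 0.132 CPM (adjusted p = 0.188).

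MYLK3, the cardiac kinase that phosphorylates the myosin regulatory light chain, had the next smallest p, with 0 to 383 CPM in CI_RFP (median 108 CPM) and 0 to 97.0 CPM in UN_RFP (median 20.5 CPM). Its log2 fold change was 2.16 ± 1.36 (adjusted p = 0.518). TNNT2 (ENSDARG00000020610), MYBPC3 and actn2b had log2 fold changes of 0.52 ± 0.68, -0.31 ± 0.74 and -0.28 ± 0.78, all smaller than their errors. Among libraries with more MYH7, 9 of 40 members were higher in all 4 CI_RFP tubes than in all 4 UN_RFP tubes and 0 lower, against 6.05% of all genes higher and 0.0404% lower. They were tnni4a, tnnc1a, actc1c, ACTA1 (ENSDARG00000055618), NEXN, ldb3b, MYOZ2 (ENSDARG00000037266), MYLK3 and trim63a. Reads of actc1c may be split with those of actc1a, which is not among the 9, so actc1c is uncertain. The calcium-binding troponin C tnnc1a, for example, had 2874 to 7785 CPM in CI_RFP against 628 to 2275 CPM in UN_RFP in this subset. UN_RFP 1 and UN_RFP 5, both with few detected genes, are among these 4 UN_RFP tubes. Cardiomyocyte markers, MYH7 among them, took 5.40% to 7.21% of counts in these CI_RFP tubes, against 1.37% to 4.48% in these UN_RFP tubes. MYH7 itself was at 26117 to 53551 CPM against 1580 to 21771 CPM. The part of this in the differences of the 9 members was not tested.

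In the BFP gate, 14 of 40 members had a positive fold change for CI_BFP over UN_BFP, with a median log2 of -0.32 against 0 over all genes; with relative log expression size factors 20 of 40 were positive and the members' median was 0.08, against 0.46 over all genes. In edgeR 0 members were called, as with 0% of all genes, while at an unadjusted p under 0.05 there were 2 higher and 3 lower members, against 5.51% and 3.57% of all genes. Again voom called 0 members (0.0741% of all genes), and DESeq2 called 3 (3.17% of all genes). Ranges of CI_BFP and UN_BFP overlapped for all 40 members, while 2.97% of all genes were higher and 1.88% lower without overlap. The gene trim55a had 5.15, 0 and 23.4 CPM in CI_BFP and 0 in all 4 UN_BFP tubes (edgeR adjusted p = 0.510). Its CI_BFP mean was 149-fold the floor of 3 counts over UN_BFP, a bound that covers counting error and not the spread between tubes. Without CI_BFP 3 that bound was 40.2-fold. MYOZ2 (ENSDARG00000012311) had 3.81, 5.19 and 0 CPM in CI_BFP and 0 in all UN_BFP tubes. The same bound for it was 46.8-fold, or 29.7-fold without CI_BFP 2. PDLIM5 (ENSDARG00000101777), a LIM protein of the Z-disc, was at 0 in all 3 CI_BFP tubes, and its UN_BFP counts came from UN_BFP 4 alone, at 36.7 CPM. For the interaction of gate and injury, edgeR called 0 members (0% of all genes), voom 0 (0.0135%) and DESeq2 2 (4.74%). At an unadjusted p under 0.05 there was 1 member with a positive and 1 with a negative term, against 8.53% and 2.92% of all genes. The smallest p was for trim55a (adjusted p = 0.253), followed by PDLIM5 (ENSDARG00000101777) and FHOD3, a formin that assembles actin.

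Within the RFP gate the troponin genes tnni4a and TNNC1 went with the chamber myosins, in opposite directions. The 8 libraries with more MYH7 and the 10 with more myh6 are groups made from measured values, so no test was made between them. Of the 40 members, 2 were higher and 1 lower in every more-MYH7 library, against 0.0808% of all genes higher and 0.155% lower. The troponin I gene tnni4a was at 238 to 1408 CPM in the 8 more-MYH7 tubes (median 911 CPM), against 0 to 0.815 CPM in the 10 more-myh6 tubes, 5 of which had no count. CI_RFP 3, a more-myh6 tube with 11553783 counts in all, had 0.130 CPM. The troponin C gene TNNC1 went the other way, at 0 to 20.1 CPM in more-MYH7 tubes (median 4.57 CPM), against 72.3 to 8008 CPM in more-myh6 tubes (median 1334 CPM). For actn2b, more-MYH7 tubes had 653 to 2131 CPM, against 15.7 to 425 CPM in more-myh6 tubes.

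By difference of median log2(CPM + 1), the members higher with MYH7 were led by tnni4a (9.78), CSRP3 (6.51), ACTA1 ENSDARG00000036371 (6.24), LMOD2 ENSDARG00000045864 (3.97) and LMOD2 ENSDARG00000045634 (3.90). CSRP3, which senses stretch at the Z-disc, had a median of 511 CPM in more-MYH7 tubes, against 4.71 CPM in more-myh6 tubes; the ranges overlapped through UN_RFP 5, at 0. LMOD2 ENSDARG00000045864, a leiomodin that lengthens thin filaments, had medians of 386 CPM in more-MYH7 tubes and 23.6 CPM in more-myh6 tubes. In the other direction came TNNC1 (-7.99), tpm1 (-4.97), TMOD4 (-2.44), FHOD3 (-1.35) and MYOM1 ENSDARG00000061249 (-0.23). The tropomyosin tpm1 was detected in 2 of 8 more-MYH7 tubes, at most 1.53 CPM, and in 9 of 10 more-myh6 tubes, up to 312 CPM. In all, 31 of 40 members had a higher median with MYH7, 5 a lower one and 4 the same. Of all 14853 genes tested, 2906 had a higher median with MYH7, 9405 a lower one and 2542 the same. The median of the members' differences was 2.27, against -0.48 over all genes. Other measures moved with this split too. In more-MYH7 tubes, against more-myh6 tubes, the fibroblast and epicardium markers took a median of 0.000115% of counts (0% to 0.00494%) against 1.08% (0.00122% to 7.19%), and the smooth muscle markers 0.00843% against 0.0966%. Cardiomyocyte markers took 4.94% in more-MYH7 tubes against 0.893% in more-myh6 tubes. That marker list holds MYH7 and myh6 themselves, so its gap is not independent of the split. The median number of genes detected was 7070 against 11554. The part of these in the differences between the tubes was not tested.

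The BFP gate offers a second set of tubes for the troponin genes of this pattern. In its 6 libraries with more MYH7, tnni4a had 2.72 to 132 CPM and TNNC1 0 to 17.2 CPM. UN_BFP 1, the one BFP library with more myh6, had 0.136 CPM of tnni4a and 732 CPM of TNNC1, as the more-myh6 tubes of the RFP gate did. For actn2b the BFP tubes with more MYH7, at 10.6 to 77.7 CPM, lay below the 121 CPM of UN_BFP 1. LMOD2 ENSDARG00000045634 also went against the RFP gate, at 0 to 1.72 CPM in these tubes and 28.8 CPM in UN_BFP 1. The tropomyosin tpm1 kept its direction, with 37.7 CPM in UN_BFP 1, but reached 31.0 CPM in BFP tubes with more MYH7.

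**Figure D4:**
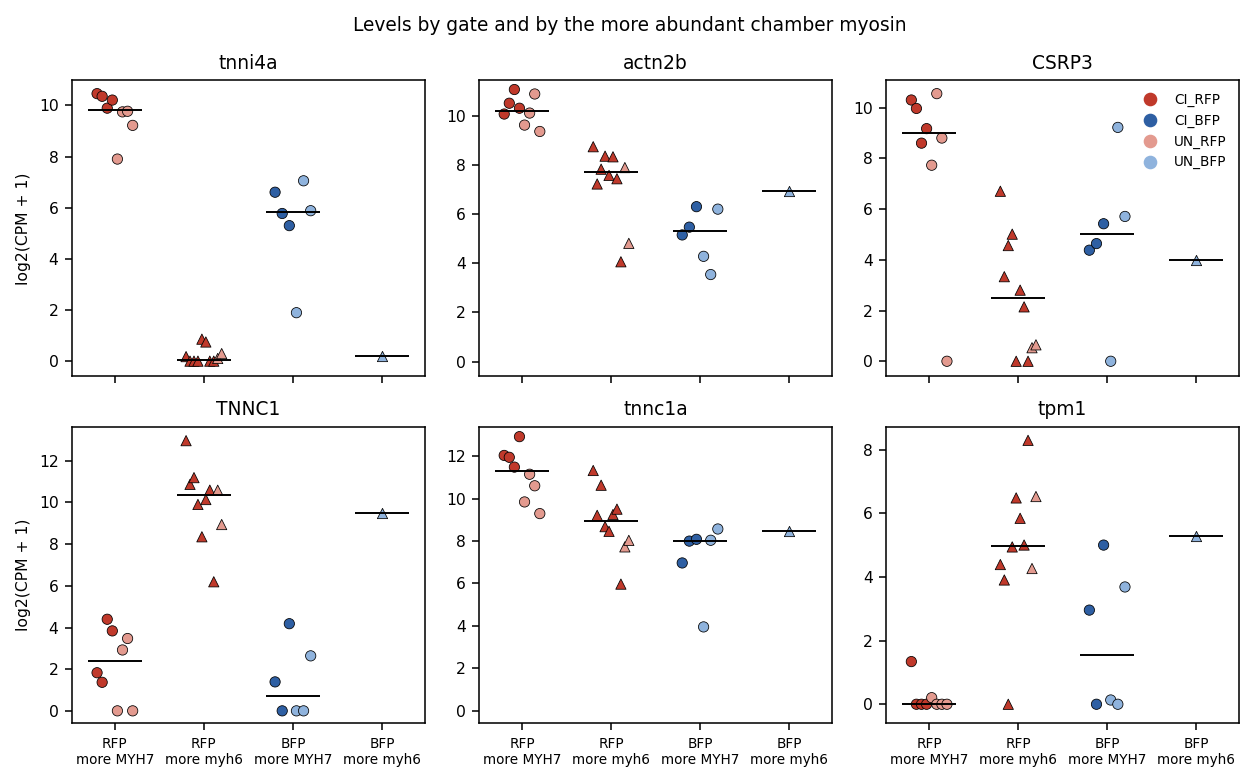
Levels as log2(CPM + 1) of 6 members in libraries parted by gate and by the higher chamber myosin, each point a library and each line a median. In the RFP gate, more-MYH7 tubes lie wholly above more-myh6 tubes for tnni4a and actn2b and wholly below them for TNNC1.

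The share of tnnc1a in the summed counts of tnnc1a and TNNC1 does not depend on library size. In the RFP gate it was 99.3% to 100% in the 8 tubes with more MYH7, against 12.1% to 51.8% in the 10 tubes with more myh6. In the BFP gate it was 94.0% to 100% in the 6 tubes with more MYH7, against 32.5% in UN_BFP 1 (95% Wilson interval 31.7% to 33.2%, counting error only). No tube lay between 51.8% and 94.0%. By label, the mean share was 56.9% ± 32.6 in CI_RFP and 97.6% ± 3.14 in CI_BFP (SD, n = 12 and 3), a difference of -40.7 percentage points that missed the threshold (exact two-sided permutation p = 0.103, adjusted p = 0.914). The mean was 74.3% ± 40.1 in UN_RFP and 82.8% ± 33.5 in UN_BFP (SD, n = 6 and 4; exact two-sided permutation p = 0.790, adjusted p = 1). That second difference, -8.47 percentage points, turned to 3.98 without UN_RFP 3. Over 9 paralogue pairs and the 4 comparisons between label groups, 32 tests of a share could be made. Of these, 0 passed after adjustment and 0 had an unadjusted p under 0.05. The exact permutation test can reach no p below 0.0286 for 3 against 4 tubes and 0.0022 for 12 against 3. With 32 tests, a lone share at either floor would not pass after adjustment, so the absence of passes does not show equal shares.

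**Figure D5:**
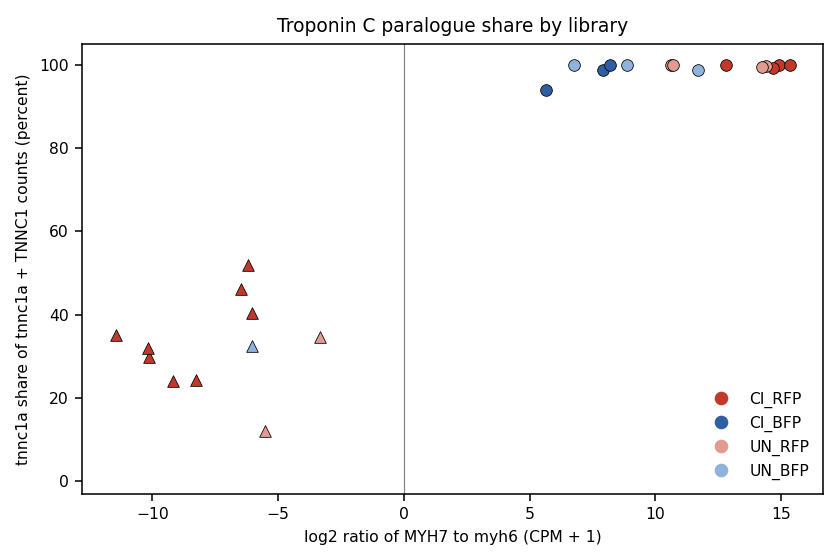
Share of tnnc1a in the counts of tnnc1a and TNNC1 (vertical axis, percent) against the log2 ratio of MYH7 to myh6 (horizontal axis), one point per library, coloured by group. All libraries with a ratio above 0 lie at 94.0% or more, and all those below 0 at 51.8% or less.

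Of the other genes of the sarcomere and its upkeep, 107 IDs were listed and 84 tested. As fitted over all 25 libraries with the low-count filter, edgeR called 0 of them in each of the 5 comparisons. Without that filter it called 5 for CI_RFP over CI_BFP and 1 for CI_RFP over UN_RFP, where 293 and 513 of all genes were called. In these comparisons voom called 8 and 5 of the 84, against 1.43% and 3.12% of all genes. DESeq2 called 14 and 5, against 2.99% and 5.8% of all genes, so the 5 lay near the share of all genes. For UN_RFP over UN_BFP voom called 1 and DESeq2 7, against 0.963% and 5.43% of all genes. For CI_BFP over UN_BFP DESeq2 called 5, and for the interaction 7, against 3.17% and 4.74% of all genes. For CI_RFP over CI_BFP their median log2 fold change was 3.10, against 0.22 over all genes, with 28 of 84 (33.3%) higher at an unadjusted p under 0.05 and 0 lower, against 7.65% and 1.68% of all genes. For UN_RFP over UN_BFP the median was 1.00, against -0.43 over all genes, with 11 (13.1%) higher and 6 (7.14%) lower, against 6.56% and 11.2% of all genes. FHL2 (ENSDARG00000003991), a LIM protein bound to titin, had the smallest p after injury, with 0.382 to 265 CPM in CI_RFP and 0 in all 3 CI_BFP tubes (adjusted p = 0.0629). For CI_RFP over UN_RFP the median was 1.24, against 0.75 over all genes, with 14 (16.7%) higher and 0 lower, a share near the 15.8% of all genes. The smallest p belonged to LMOD1 (ENSDARG00000077261), a leiomodin with counts in 6 of 12 CI_RFP tubes up to 23.8 CPM and in none of 6 UN_RFP tubes (adjusted p = 0.0912). BIN1 (ENSDARG00000058820), a membrane-shaping protein of the T-tubule, also had counts in 6 of 12 CI_RFP tubes and none of 6 UN_RFP tubes (adjusted p = 0.0912). LMOD1 and BIN1 had the smallest p for UN_RFP over UN_BFP as well, both lower with an adjusted p of 0.115, with 0 in all UN_RFP tubes and counts in 2 and 1 of 4 UN_BFP tubes. FHL2 (ENSDARG00000042018) had 104 to 1899 CPM in CI_RFP, against 0 to 7.24 CPM in CI_BFP (adjusted p = 0.404). For CI_BFP over UN_BFP, the smallest p belonged to FHL2 (ENSDARG00000003991), with 0 in CI_BFP and 0 to 18.2 CPM in UN_BFP, and to dmd, the dystrophin gene, with counts in 1 of 3 CI_BFP tubes and 0 of 4 UN_BFP tubes (adjusted p = 0.510 for both).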

How the data were processed

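Each library is a tube of 20 sorted cells. Per the submitters' processing notes, reads were checked with FastQC 0.11.5, aligned with HISAT2 2.1.0 and counted with featureCounts 1.6.0, with the zebrafish build GRCz11; the sources used here do not give the strand setting or the handling of multi-mapping reads. The deposited files hold raw read counts per Ensembl gene ID, not normalised by the authors. Names came from a table that covered 29178 of 31901 IDs (91.5%). The members and gene lists were chosen with earlier results of these data known.

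Counts were tested with edgeR 4.0.16 (filterByExpr, TMM, robust quasi-likelihood fit of 4 group means over all 25 libraries, two-sided, Benjamini-Hochberg over the 14853 genes tested, threshold 0.05); the standard error is the log2 fold change over the square root of F. Alternatives were DESeq2 1.42.0, voom in limma 3.58.1, other size factors, other filters, 2-group fits, the MYH7 to myh6 log2 ratio as a covariate, and left-out libraries. Paralogue shares used libraries with at least 20 counts over the pair. The scripts were tested on simulated data. That test gives no ground for reading an absence of edgeR calls as an absence of change, given the spread of these tubes. Libraries were parted by chamber myosin from CPM; whether the ID named MYH7 is vmhc or vmhcl is not settled by the name table. Members named were a fixed list, the 3 of smallest p per comparison, and the 5 with the largest median difference in each direction between libraries of more MYH7 and more myh6; other sarcomere genes were named by smallest p. Counts carry no molecular identifiers, so floors and intervals cover counting error only.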

Additional observations from a re-analysis of the deposited data

Results flagged for a closer look

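In the UN_RFP and UN_BFP groups, 50 sets of values of named members were looked at for a tube far from the others, and 23 had one; for normally distributed values chance gives about 1 set in 20, but these are skewed CPM with zeros, for which that rate was not measured, and sets with counts in 1 tube always qualify. UN_RFP 4 stood highest for TTN ENSDARG00000000563 (10925 CPM), TTN ENSDARG00000028213 (22719 CPM), MYOM1 ENSDARG00000104836 (333 CPM), MYOM1 ENSDARG00000061249 (19.2 CPM), PDLIM5 ENSDARG00000101777 (4.57 CPM) and FHOD3 (26.9 CPM). UN_BFP 4 stood highest in its gate for TTN ENSDARG00000000563 (453 CPM), TTN ENSDARG00000028213 (865 CPM), MYOM1 ENSDARG00000104836 (13.3 CPM), PDLIM5 ENSDARG00000101777 (36.7 CPM) and FHOD3 (7.44 CPM). UN_RFP 2 stood highest for ACTA1 ENSDARG00000036371 (1168 CPM), ACTA1 ENSDARG00000055618 (9314 CPM), CSRP3 (1502 CPM) and TNNT2 ENSDARG00000100694 (0.132 CPM). UN_BFP 3 stood highest for ACTA1 ENSDARG00000036371 (123 CPM), CSRP3 (596.5 CPM) and tcap (163 CPM). UN_RFP 3 stood highest for TNNC1 (1539 CPM), UN_RFP 6 for TNNI1 ENSDARG00000000474 (8.74 CPM), and UN_BFP 1 for TNNC1 (732 CPM), TNNI1 ENSDARG00000000474 (9.97 CPM) and MYOM1 ENSDARG00000061249 (0.136 CPM).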

How the results depend on the processing

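Of the log2 fold changes of single named members, 458 kept their direction and side of the threshold under the alternatives, 18 passed it (14 with DESeq2 or without the low-count filter, 3 with the myosin ratio in the model and 1 without UN_RFP 6), and 2 turned: PDLIM5 ENSDARG00000101777 for CI_BFP over UN_BFP was 0 and FHOD3 in the interaction was -0.71, both without UN_BFP 4, in leave-one-out ranges of -9.75 to 0 and -0.71 to 14.67. Counts of called genes depended on the tool. For CI_RFP over CI_BFP, edgeR's 0 became 1 with relative log expression size factors, 293 with no low-count filter, 213 with voom, 444 with DESeq2, 11 with the 2 groups alone and 139 with the myosin ratio in the model; of members 4 were called with no filter, 3 with voom, 10 with DESeq2 and 5 with the ratio. For UN_RFP over UN_BFP, 0 became 27 with no filter, 143 with voom, 806 with DESeq2 and 148 with the ratio. Of members 6 were called with DESeq2 and 0 with no filter, voom or the ratio. For CI_RFP over UN_RFP, 4 became 513 with no filter, 463 with voom, 861 with DESeq2 and 0 with a stricter filter, and 1 member with DESeq2. For CI_BFP over UN_BFP, 0 became 11 with voom and 471 with DESeq2, with 3 members. For the interaction, 0 became 2 with no filter, 2 with voom and 704 with DESeq2, with 2 members. The cause was not tested.

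Leaving out 1 library at a time gave 0 to 9, 0 to 170, 0 to 160, 0 to 0 and 0 to 1 called genes in these 5 comparisons in turn, 0 to 1 called members for UN_RFP over UN_BFP and 0 to 0 in the other 4, and member medians of 3.43 to 3.95, 2.08 to 3.11, 0.51 to 1.16, -0.73 to 0 and 0.48 to 1.74. Share tests passed were 0 to 0; the tnnc1a share difference ran from -44.6 to -37.7 after injury and from -25.2 to 3.98 without it, the last without UN_RFP 3. Among libraries with more MYH7, members whose ranges did not overlap numbered 29 to 32, 10 to 16 and 9 to 14. With none of these libraries left out, 8.72%, 0.518% and 6.05% of all genes were higher without overlap and 10.8%, 7.83% and 0.0404% lower. These shares were not counted for each left-out library. With CPM from the total count alone, an alternative chosen after seeing the data, UN_RFP and UN_BFP gave 5, where 43 of 14853 genes were higher and 1560 lower. Relative log expression size factors set the all-gene medians at -0.39, -0.62, 0.84, 0.46 and 0.43; members minus all genes, with all libraries or without those of few detected genes, stayed within 2.61 to 4.09 and 2.59 to 3.27 in the 2 gate comparisons and within -0.45 to 0.72 for CI_RFP over UN_RFP. At an unadjusted p under 0.05, the higher members numbered 14 to 25 for CI_RFP over CI_BFP (22 as fitted), 10 to 20 for UN_RFP over UN_BFP (17, with 10 from the 2 groups alone) and 0 to 6 for CI_RFP over UN_RFP (2) under the same settings. As fitted, 7.65%, 6.56% and 15.8% of all genes were higher at that p in these comparisons. That share moved with the setting too, so these ranges alone do not compare the members with all genes. No paired analysis was possible because the replicate numbers were given in accession order and pair no tubes. Low counts, in 20 cells per tube, limit what genes such as MYOZ2 ENSDARG00000012311 can show.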

Other observations

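Paralogue shares other than that of troponin C varied between tubes. TTN ENSDARG00000000563 made up 20.7% to 38.7% of titin counts in CI_RFP (n = 12), and 9.09% to 65.5% in UN_RFP (n = 6). The Z-disc gene ldb3a made up 12.2% to 100% of the counts of ldb3a and ldb3b in CI_RFP and 12.8% to 40.1% in CI_BFP. LMOD2 ENSDARG00000045634 made up at most 25.4% of LMOD2 counts in the 11 CI_RFP tubes with at least 20 counts of the pair, and 96.1% in UN_BFP 1. The pointed-end cap TMOD1 made up 97.7% to 100% of the counts of TMOD1 and TMOD4 in the 5 such RFP tubes with more MYH7 and 0% to 100% in the 8 with more myh6. The actin-severing cofilin gene CFL2 reached 196 CPM in UN_RFP 4, against at most 7.46 CPM in UN_BFP tubes. UN_RFP 1, 5 and 6, at 0.154, 0 and 4.54 CPM, lay inside the UN_BFP range (edgeR adjusted p = 0.344).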
